A study of Mus musculus with 11 samples.

Results

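The genes described here are pre-mRNA splicing factors, taken as every probe set of the array whose single annotated symbol names an SR protein (Srsf), Tra2a or Tra2b, an hnRNP protein (Hnrnp), Ptbp1 or Ptbp2, a subunit of SF3A, SF3B or U2AF, an Sm or snRNP protein (Snrp) or a Prp protein (Prpf). That gave 53 of the 8251 genes named by a probe set with a single symbol, measured by 73 of the array's 12488 probe sets. Of these, 66 probe sets of 52 genes were bright enough to be tested, and Prpf39 was the gene with no tested probe set. Another 7 matching probe sets carry several symbols and were left out. Srsf7, Tra2a, Ptbp1, Snrpa, Snrpd1 and Snrpd2 are not among the 53 genes and were not analysed here.

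RNA of the mouse embryonic stem (ES) cell line R1 and of mouse embryonic fibroblasts was hybridised to 11 Affymetrix MG_U74Av2 GeneChips, on which several short oligonucleotide probes per transcript are summarised as 1 intensity. The groups were undifferentiated R1 cells grown on fibroblast feeder layers (n = 3, replicates 1, 5 and 9), R1 cells differentiated towards nestin-positive cells for 4+8 days (n = 3, replicates 1, 2 and 3) or for 4+11 days (n = 3, replicates 4, 8 and 12), and fibroblast feeder layer cells (n = 2, replicates 6 and 10). The labels name no genetic change or drug in any group, and R1 is the only ES cell line. They describe independent cultures for the R1 groups but not for the feeder cells, so p-values with feeder cells may measure technical spread. Feeder replicate 10 carries the ES cell line as its source and the feeder layer as its title, which was used.

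Splicing removes introns from precursor RNA on the spliceosome, which is built from small nuclear ribonucleoproteins (snRNPs). Most of these are a small RNA held by a ring of Sm proteins. U1 pairs with the start of the intron, U2AF and the U2 snRNP with its SF3A and SF3B complexes recognise the branch site and the end of the intron, and the U5-containing tri-snRNP with Prp proteins then completes the machine. SR proteins mostly favour the inclusion of exons, hnRNP proteins often oppose it, and the balance between them changes as ES cells turn into neural cells.

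RefSeq promoter windows (GRCm38.p6, 250 bases before to 50 after a gene's start) were matched by symbol or gene identifier for 48 of the 53 genes, in 60 windows. Hnrnpll, Hnrnpul2, Sf3b5, Snrpb and U2af2 were not matched. Windows of splicing factors were rich in CG dinucleotides, with a median of 25 per window against 7 over all 32851 windows, and had a median GC content of 60.3% against 52.7%. Letter matches on either strand were counted for 6 motifs. The GC box GGGCGG was present in 70% of member windows and 35.7% of all windows. The ETS motif CCGGAAG was present in 33.3% and 8.86%, and the NRF1 motif (GCGCA and GCGC with 1 free base between them) in 21.7% and 4.6%. The CCAAT box (CCAAT, whose matches on the 2 strands can overlap) was present in 48.3% and 37.4%. The TATA motif TATAAA was present in 8.33% and 13.6%, and the E-box CACGTG in 6.67% and 7.15%. These are descriptions of letters, and GC-rich windows hold more GC-rich motifs. The windows of the 3 branch site and 3′ splice site genes that were called lower after 4+11 days are printed 5′ to 3′ on the gene's strand, with motif matches in capitals. They are Sf3a1 (chr11:4160104-4160403, plus strand), Sf3b3 (chr8:110846754-110847053, minus strand) and the first of 2 windows of U2af1 (chr17:31658715-31659014, minus strand).
Sf3a1: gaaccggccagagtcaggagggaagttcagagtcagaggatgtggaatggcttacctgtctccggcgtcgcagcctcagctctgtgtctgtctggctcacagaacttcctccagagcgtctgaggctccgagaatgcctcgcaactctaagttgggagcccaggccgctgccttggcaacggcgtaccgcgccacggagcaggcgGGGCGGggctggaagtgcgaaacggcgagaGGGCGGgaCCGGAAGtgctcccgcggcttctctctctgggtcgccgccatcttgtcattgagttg
Sf3b3: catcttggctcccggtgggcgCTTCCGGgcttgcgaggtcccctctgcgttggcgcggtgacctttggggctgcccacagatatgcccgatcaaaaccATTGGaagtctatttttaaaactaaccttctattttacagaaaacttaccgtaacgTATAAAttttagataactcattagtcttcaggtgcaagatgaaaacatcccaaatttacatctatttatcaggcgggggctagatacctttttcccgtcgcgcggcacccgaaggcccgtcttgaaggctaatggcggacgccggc
U2af1: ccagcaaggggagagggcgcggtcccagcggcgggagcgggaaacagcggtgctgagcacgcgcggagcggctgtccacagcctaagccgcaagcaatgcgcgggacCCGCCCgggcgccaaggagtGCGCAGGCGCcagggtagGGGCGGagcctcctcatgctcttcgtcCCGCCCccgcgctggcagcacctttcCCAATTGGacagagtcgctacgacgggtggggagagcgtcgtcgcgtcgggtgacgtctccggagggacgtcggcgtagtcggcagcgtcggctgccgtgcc
The Sf3a1 window held 1 ETS match and 2 GC boxes. The Sf3b3 window held 1 ETS match, 1 CCAAT box and 1 TATA match. The U2af1 window held 1 NRF1 match, 3 GC boxes and 2 overlapping CCAAT matches.

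Intensities below are quantile-normalised, on a linear scale, and are listed in the replicate order given above. Differences are log2 differences with their SE, taken after adding 8.5 to each intensity, so they understate the change of dim genes. A gene was called higher or lower where its Benjamini-Hochberg adjusted p from limma, over all 8940 tested probe sets, was below 0.05. The 3 arrays of the 4+8 day group had a scan session and chip lot of their own, so in every comparison with them the session cannot be told apart from the days of differentiation. Rank correlations between replicate arrays lay between 0.957 and 0.967 for undifferentiated cells, 0.81 and 0.884 at 4+8 days and 0.882 and 0.958 at 4+11 days, and were 0.969 for feeder cells. Marker genes went with the labels in part. Pou5f1, a pluripotency factor, had 2125, 1649 and 2724 in undifferentiated cells and at most 31.7 on any other array. Of 5 markers of nestin-positive and neural progenitor cells, 0 were called higher and 1 lower at 4+8 days, and 1, the nestin gene Nes, was called higher at 4+11 days, with 1.20 ± 0.31 (adjusted p = 0.0257). Nes had 216, 196 and 165 in undifferentiated cells, 233, 417 and 195 at 4+8 days and 397, 599 and 385 at 4+11 days, but also 573 and 351 in feeder cells. All 4 cardiac muscle markers were called higher at both times. Undifferentiated arrays also carried fibroblast signal, with the collagen gene Col1a1 at 3616, 3213 and 2106, beside 16256 and 17256 in feeder cells. In bulk RNA, fewer cells of a type and less RNA per cell cannot be told apart.

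After quantile normalisation, more splicing factor genes were called lower than higher in differentiated and feeder cells against undifferentiated ES cells. Without normalisation this turned at 4+8 days, with 2 lower and 10 higher. It was lost at 4+11 days and in feeder cells, with 0 lower and 0 higher in both. That fit called 4.26% of all genes lower and 58.3% higher at 4+8 days. It called 3.54% lower and 16.4% higher at 4+11 days, and 3.61% lower and 18.6% higher in feeder cells. After normalisation, 15 of the 52 genes were called lower and 1 higher at 4+8 days. Over all 6650 genes tested, 20.1% were called lower and 17.7% higher. At 4+11 days, 6 were called lower and 0 higher, where 10% of all genes were called lower and 10% higher, so the share of calls below undifferentiated cells was near the background. At an unadjusted p below 0.05 the 4+11 day fit gave 15 lower and 2 higher, against 16.8% and 18.1% of all genes. In feeder cells, 14 were called lower and 0 higher, where 10.8% of all genes were called lower and 11% higher, and at an unadjusted p below 0.05 there were 26 lower and 0 higher, against 17.1% and 17.7% of all genes. The unadjusted counts at 4+8 days were 23 lower and 3 higher, against 25.1% and 23.2% of all genes. The median difference of the 52 genes was -0.50 at 4+8 days, -0.41 at 4+11 days and -0.67 in feeder cells, where the medians over all genes were 0.02, -0.00 and 0.00. In the values as deposited, not normalised between arrays, the median of all genes moved to 1.03, 0.29 and 0.35 and that of the splicing factors to 0.35, -0.07 and -0.22. The sign at 4+8 days turned there, while the differences from the median of all genes were -0.67, -0.37 and -0.57.

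Most of the genes that were not called had the same sign. At 4+8 days 43 of 52 differences were negative, at 4+11 days 43 and in feeder cells 47. These comparisons share the undifferentiated arrays, so their signs are not independent of each other. Groups that did not overlap, with every array lower than every undifferentiated array, were found for 26 genes at 4+8 days, 27 at 4+11 days and 46 in feeder cells. Over all genes the shares were 25.5%, 24.1% and 31.1%. In the opposite direction 4, 2 and 3 genes had groups that did not overlap, against 23.9%, 23.9% and 32.5% of all genes.

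**Figure D1:**
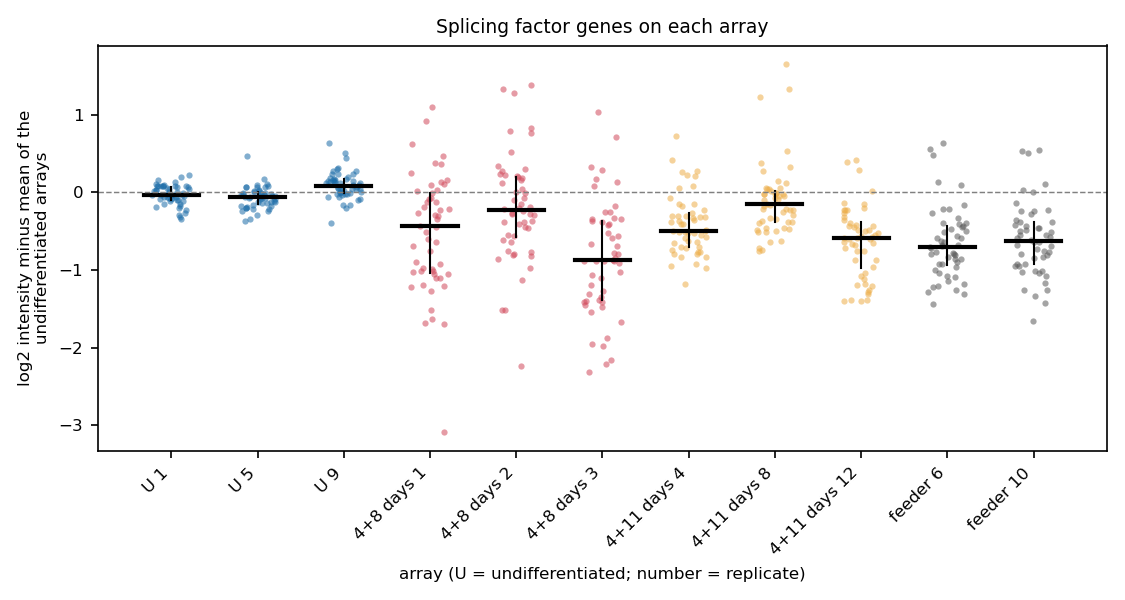
Log2 intensity of the 52 tested splicing factor genes on each array, minus the gene's mean over the 3 undifferentiated arrays (vertical axis). Each point is a gene, thick bars are medians and thin bars span the middle 50% of genes. Medians lie at -0.44, -0.23 and -0.87 on the 4+8 day arrays, -0.49, -0.15 and -0.59 on the 4+11 day arrays, and -0.70 and -0.62 on the feeder arrays, after quantile normalisation (as deposited, the 4+8 day group's median difference turns to 0.35).

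Between 4+8 and 4+11 days calls went in both directions. Of the 52 genes, 7 were called higher at 4+11 days and 5 lower, where 12.5% and 10.8% of all genes were called, and the median difference was 0.17 against 0.05 over all genes. Both counts are near the background. Groups that did not overlap were found for 10 genes in the higher direction and 8 in the lower, against 18.8% and 16.6% of all genes. The median fell below 0, to -0.05, without 4+11 day replicate 8, to -0.10 without 4+8 day replicate 3 and to -0.22 in the values as deposited, where all genes moved to -0.58.

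**Figure D2:**
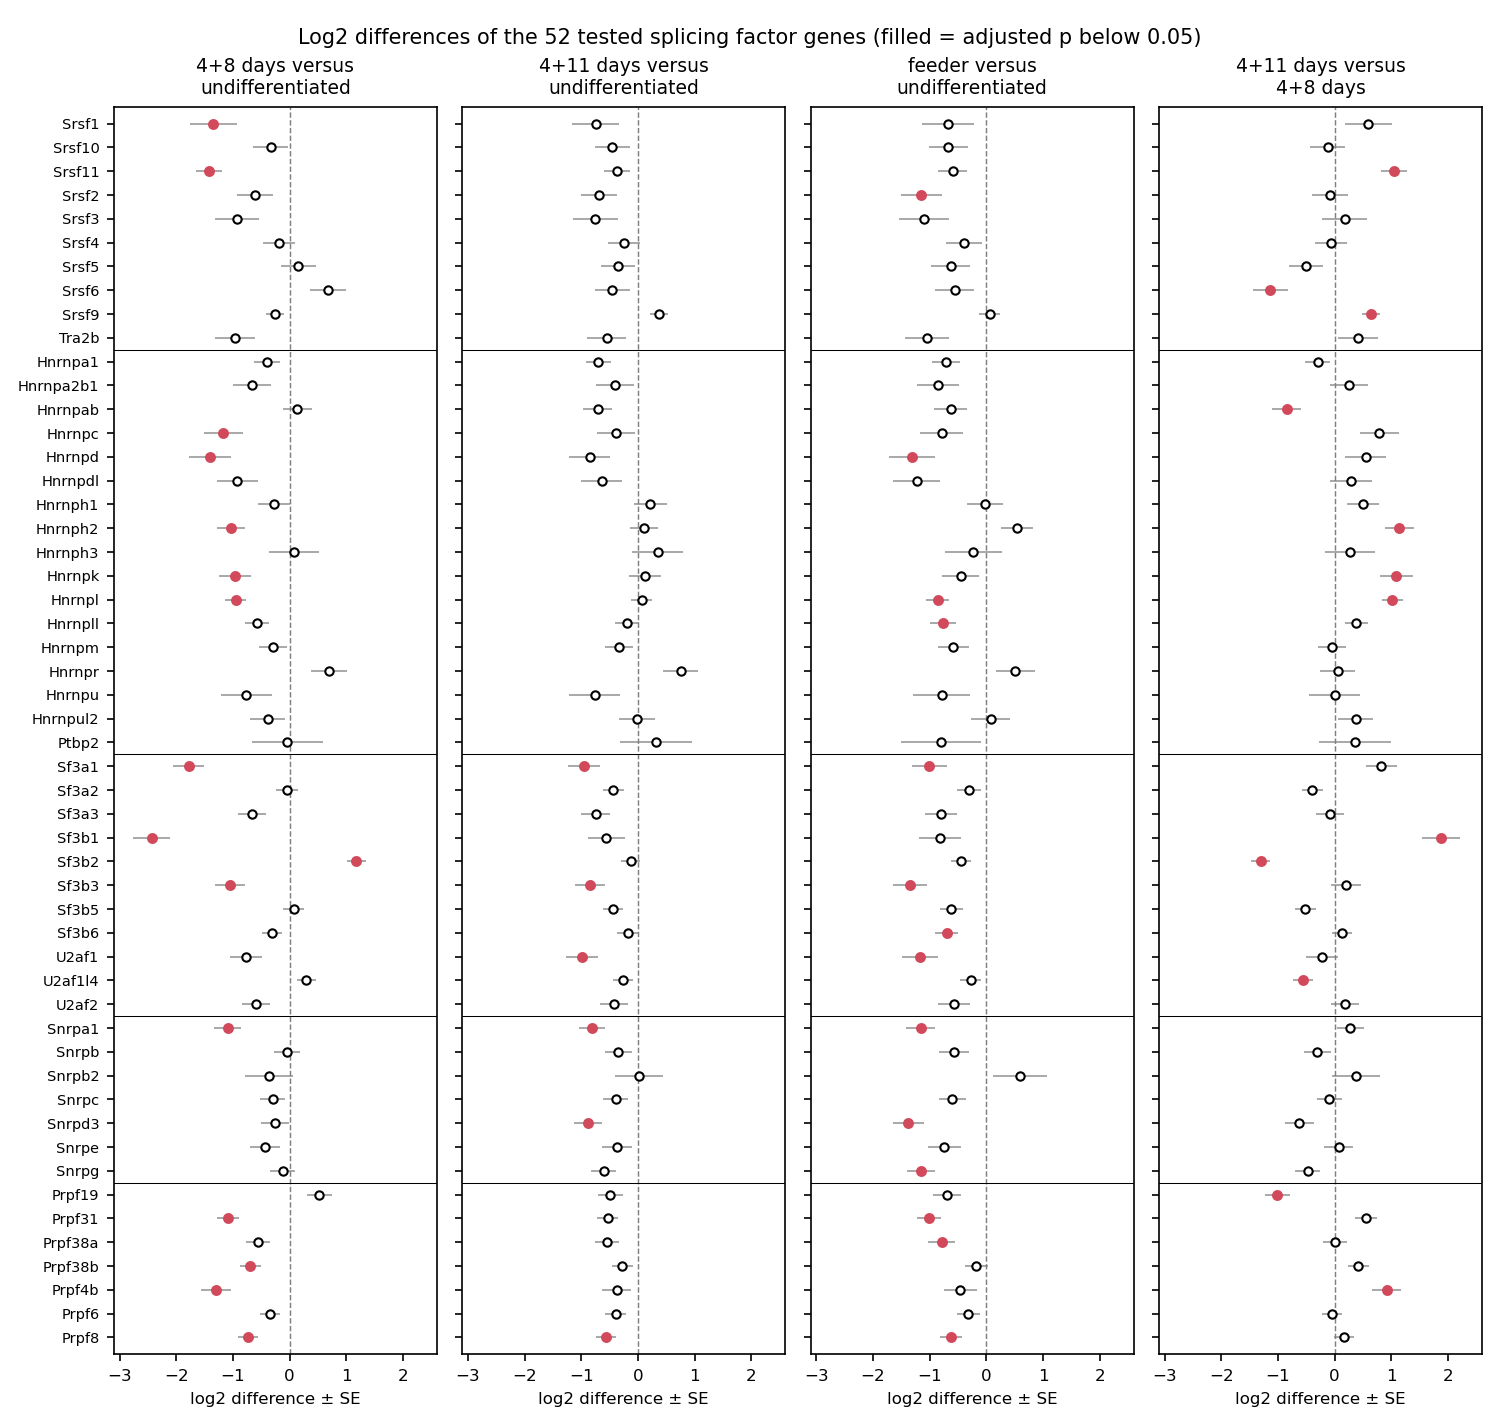
Log2 difference (horizontal axis, with its SE as a bar) of each of the 52 tested splicing factor genes in the 4 comparisons, grouped from top to bottom as SR and Tra2 proteins, hnRNP and Ptbp proteins, branch and 3′ splice site proteins, Sm and snRNP proteins, and Prp proteins. Filled points passed an adjusted p of 0.05 in limma. Negative differences outnumber positive ones by 43 to 9, 43 to 9 and 47 to 5 in the 3 comparisons with undifferentiated cells, on quantile-normalised values (as deposited, the median at 4+8 days is positive).

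The proteins that recognise the branch site and the end of the intron held both the largest fall and the 1 called rise at 4+8 days. Of 11 tested genes, 3 were called lower and 1 higher at 4+8 days, 3 were called lower at 4+11 days and 4 in feeder cells, and all 11 differences were negative at 4+11 days and in feeder cells. Over all genes 20.1%, 10% and 10.8% were called lower and 17.7% higher at 4+8 days, so the counts at 4+8 days are near the background. The medians of the class were -0.60, -0.44 and -0.70. Sf3b1 encodes the SF3B subunit that clasps the branch site helix. Its brighter probe set read 793, 717 and 928 in undifferentiated cells, 87.3, 164 and 199 at 4+8 days, 668, 692 and 352 at 4+11 days and 491 and 423 in feeder cells. Every 4+8 day array was below all others. The log2 difference at 4+8 days was -2.44 ± 0.33 (adjusted p = 0.000553), the largest among the members, and the difference between 4+11 and 4+8 days was 1.88 ± 0.33 (adjusted p = 0.00521). The other tested probe set of Sf3b1 read 343, 295 and 385 in undifferentiated cells, 239.5, 327 and 212 at 4+8 days, 342, 284 and 266 at 4+11 days and 229.8 and 252 in feeder cells. There the 4+8 day arrays overlapped the undifferentiated ones, and the difference was -0.40 ± 0.21 (adjusted p = 0.157).

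Sf3a1, a subunit of SF3A that joins it to the U2 snRNP, was called lower in all 3 groups compared with undifferentiated cells. It had 417, 331 and 441 in undifferentiated cells, 132, 132 and 72.4 at 4+8 days, 218, 252 and 143 at 4+11 days and 192 and 190.3 in feeder cells. No array of the other groups reached the lowest undifferentiated value. The differences were -1.78 ± 0.28 (adjusted p = 0.00109) at 4+8 days, -0.95 ± 0.28 (adjusted p = 0.0384) at 4+11 days and -1.01 ± 0.31 (adjusted p = 0.0448) in feeder cells. Sf3b3, the large scaffold subunit of SF3B, had 657, 635 and 1254 in undifferentiated cells, 384, 452 and 329 at 4+8 days, 421, 476 and 436 at 4+11 days and 292 and 332 in feeder cells. Undifferentiated replicate 9 was far above the other 2, yet all 8 remaining arrays were below the lowest undifferentiated one. The differences were -1.05 ± 0.26 (adjusted p = 0.0117), -0.85 ± 0.26 (adjusted p = 0.0493) and -1.35 ± 0.29 (adjusted p = 0.0115).

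U2AF1 is the subunit of U2AF that contacts the AG at the end of the intron, and U2AF2 binds the pyrimidine tract before it. U2af1 had 1001, 1027 and 1020.3 in undifferentiated cells, 828, 659.8 and 384 at 4+8 days, 515, 602 and 419.8 at 4+11 days and 531 and 373 in feeder cells. The undifferentiated arrays lay close together and above all others. It was called lower at 4+11 days, with -0.99 ± 0.28 (adjusted p = 0.0363), and in feeder cells, with -1.18 ± 0.32 (adjusted p = 0.0269), and missed the threshold at 4+8 days, with -0.77 ± 0.28 (adjusted p = 0.0565). U2af2 had 2070.2, 1971 and 1819 in undifferentiated cells, 1371, 1711 and 905 at 4+8 days, 1351, 1832 and 1254 at 4+11 days and 1293 and 1331 in feeder cells. Its differences of -0.60, -0.42 and -0.57 did not pass, with adjusted p of 0.0822, 0.275 and 0.183. U2af1l4, a paralogue of U2af1, had 159, 179 and 168 in undifferentiated cells, 222, 215 and 192 at 4+8 days, 116, 159.7 and 146 at 4+11 days and 133 and 143 in feeder cells. It was called only between the differentiated groups, lower at 4+11 than at 4+8 days, with -0.56 ± 0.17 (adjusted p = 0.0429).

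Sf3b2, another SF3B subunit at the branch site, was the gene called higher at 4+8 days. It had 260.5, 256 and 254 in undifferentiated cells, 563, 686 and 535 at 4+8 days, 219, 256 and 230.0 at 4+11 days and 183 and 189.7 in feeder cells. All 3 arrays of the 4+8 day session were above all 8 arrays of the other session. The log2 difference from undifferentiated cells was 1.18 ± 0.16 (adjusted p = 0.000636), and that of 4+11 from 4+8 days -1.30 ± 0.16 (adjusted p = 0.00148). Its only probe set carries the array maker's suffix for probes shared by similar sequences. Without suffixed probe sets 0 members were called higher at 4+8 days, against 17% of all genes. Sf3b6, the SF3B subunit that touches the branch site adenosine, had 923, 891 and 905 in undifferentiated cells and 610.0 and 507 in feeder cells, a log2 difference of -0.70 ± 0.20 (adjusted p = 0.0387). The remaining SF3 genes were called in none of the 4 comparisons. Sf3a3 had differences of -0.67, -0.75 and -0.80 from undifferentiated cells at 4+8 days, 4+11 days and in feeder cells, Sf3a2 of -0.04, -0.43 and -0.31, and Sf3b5 of 0.07, -0.44 and -0.62.

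**Figure D3:**
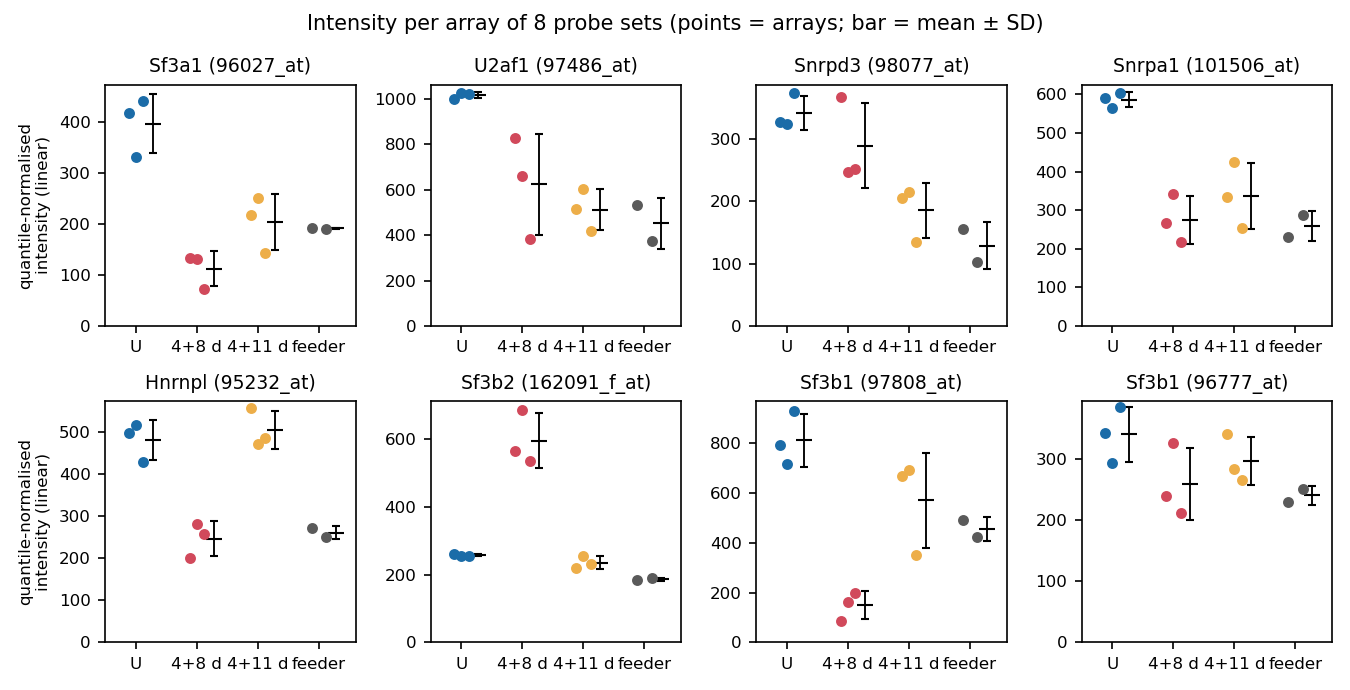
Quantile-normalised intensity (linear vertical axis from 0) of 8 probe sets in undifferentiated cells (U), at 4+8 days, at 4+11 days and in feeder cells. Points are arrays, and black bars are the mean ± SD of a group. Sf3a1, U2af1 and Snrpa1 lie below every undifferentiated array in the other 3 groups, Hnrnpl is low at 4+8 days and with the undifferentiated arrays at 4+11 days, the first Sf3b1 probe set is lowest at 4+8 days and below the undifferentiated arrays at 4+11 days too, and Sf3b2 is high on the 4+8 day arrays.

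Among the Sm and snRNP proteins, 1 of 7 tested genes was called lower at 4+8 days, 2 at 4+11 days and 3 in feeder cells, and 0 were called higher, where 20.1%, 10% and 10.8% of all genes were called lower. The count at 4+8 days is no larger than the background. At an unadjusted p below 0.05, 1, 3 and 5 were lower and 0 higher, against 25.1%, 16.8% and 17.1% of all genes lower. The shares of all genes higher were 23.2%, 18.1% and 17.7% at that threshold, and 17.7%, 10% and 11% by the adjusted calls. The medians of the class were -0.29, -0.39 and -0.74. Snrpa1, the A′ protein of the U2 snRNP, was called lower in all 3 groups. It had 589.9, 565 and 604 in undifferentiated cells, 268, 341 and 216 at 4+8 days, 334, 424 and 252 at 4+11 days and 231 and 287 in feeder cells. Every other array was below the undifferentiated ones. The differences were -1.09 ± 0.24 (adjusted p = 0.00583), -0.81 ± 0.24 (adjusted p = 0.038) and -1.16 ± 0.26 (adjusted p = 0.0133). Snrpd3, an Sm ring protein, had 328, 324 and 374 in undifferentiated cells, 368, 248 and 252 at 4+8 days, 206, 216 and 135 at 4+11 days and 155 and 103 in feeder cells. The 4+8 day arrays overlapped the undifferentiated ones, while the 4+11 day and feeder arrays were all below both groups. It was called lower at 4+11 days, with -0.88 ± 0.25 (adjusted p = 0.0363), and in feeder cells, with -1.38 ± 0.28 (adjusted p = 0.00862), the largest fall of a member there. Snrpg, another Sm ring protein, had 2209.9, 2764 and 2437 in undifferentiated cells and 1056 and 1157 in feeder cells, a log2 difference of -1.15 ± 0.25 (adjusted p = 0.011).

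The Sm genes Snrpb and Snrpe were called in no comparison. Snrpb had 4865, 4574 and 4414 in undifferentiated cells, 4699.7, 5371 and 3559 at 4+8 days, 3230.3, 4797 and 3074 at 4+11 days and 3521 and 2724 in feeder cells. Its differences were -0.04 at 4+8 days, -0.35 at 4+11 days and -0.57 in feeder cells, with adjusted p of 0.901, 0.336 and 0.155, and in the values as deposited the first turned to 0.85 with an adjusted p of 0.0164. Snrpe had 3097, 2631 and 2419.7 in undifferentiated cells, 2125, 2518 and 1477 at 4+8 days, 2037, 2811 and 1600.0 at 4+11 days and 1687 and 1539 in feeder cells. Those values overlap between undifferentiated cells and both differentiated groups, and the differences were -0.44, -0.37 and -0.74. Snrpc, a protein of the U1 snRNP, had differences of -0.29, -0.39 and -0.60, and Snrpb2, the B″ protein of the U2 snRNP, of -0.36, 0.02 and 0.60. Neither was called.

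Prp proteins act around the catalytic core. Of 7 tested genes, 4 were called lower at 4+8 days, 1 at 4+11 days and 3 in feeder cells, with 0 higher and medians of -0.70, -0.49 and -0.62. Over all genes 20.1%, 10% and 10.8% were called lower, and the single call at 4+11 days is near that share. At an unadjusted p below 0.05, 5, 3 and 4 were lower and 1, 0 and 0 higher, against 25.1%, 16.8% and 17.1% of all genes lower. The shares of all genes higher were 23.2%, 18.1% and 17.7% at that threshold, and 17.7%, 10% and 11% by the adjusted calls. Prpf8, the protein at the heart of the U5 snRNP that cradles the catalytic RNA, had 918, 762 and 909 in undifferentiated cells, 505, 586 and 463 at 4+8 days, 512, 618 and 611 at 4+11 days and 536 and 576 in feeder cells. All 8 arrays of the other groups were below the undifferentiated ones. It was called lower in each, with -0.73 ± 0.18 (adjusted p = 0.00972), -0.57 ± 0.18 (adjusted p = 0.0493) and -0.62 ± 0.20 (adjusted p = 0.049). Prpf31, which holds the tri-snRNP together, had 379.7, 328 and 378 in undifferentiated cells, 176, 195 and 131 at 4+8 days, 245, 252 and 243 at 4+11 days and 196 and 156 in feeder cells. Again no array reached the undifferentiated ones, and the calls were at 4+8 days, with -1.09 ± 0.19 (adjusted p = 0.00203), and in feeder cells, with -1.01 ± 0.21 (adjusted p = 0.0101), while 4+11 days gave -0.53 ± 0.19 (adjusted p = 0.0789).

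Prpf4b, a kinase of spliceosome proteins, was dimmer and fell at 4+8 days. It had 71.0, 60.2 and 90.0 in undifferentiated cells, 16.9, 38.2 and 21.9 at 4+8 days, 57.4, 64.1 and 42.7 at 4+11 days and 52.9 and 48.4 in feeder cells. The 4+8 day arrays were below all others, with a difference of -1.30 ± 0.26 (adjusted p = 0.00388) from undifferentiated cells and from 4+8 to 4+11 days of 0.92 ± 0.26 (adjusted p = 0.0296). Prpf19, the ubiquitin ligase of the complex that activates the spliceosome, had its highest values there. It had 506, 449 and 479.8 in undifferentiated cells, 916, 591 and 605 at 4+8 days, 366, 339 and 311 at 4+11 days and 349 and 243 in feeder cells. The 4+8 day arrays were above all others, the difference from undifferentiated cells of 0.52 ± 0.22 (adjusted p = 0.0874) did not pass, and that of 4+11 from 4+8 days, -1.01 ± 0.22 (adjusted p = 0.0116), did. A second, dimmer Prpf19 probe set had a difference of 1.43 ± 0.47 (adjusted p = 0.0375) at 4+8 days. Prpf38a, a B complex protein, was called lower in feeder cells, with -0.78 ± 0.24 (adjusted p = 0.0441), and Prpf38b, related to it by sequence, at 4+8 days, with -0.70 ± 0.19 (adjusted p = 0.0152). Prpf6, a bridge within the tri-snRNP, had differences of -0.35, -0.39 and -0.32 and was not called. Both probe sets of Prpf39, a U1-associated protein, stayed at or below 26.2 on every array.

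Among the SR proteins and Tra2b, 2 of 10 tested genes were called lower at 4+8 days, 0 at 4+11 days and 1 in feeder cells, and 0 were called higher. Over all genes 20.1%, 10% and 10.8% were called lower, so by those calls the class stood at or under the background. At an unadjusted p below 0.05 those counts were 4, 0 and 4 lower and 0, 1 and 0 higher, against 25.1%, 16.8% and 17.1% of all genes lower. The shares of all genes higher were 23.2%, 18.1% and 17.7% at that threshold, and 17.7%, 10% and 11% by the adjusted calls. The medians of the class were -0.47, -0.45 and -0.65. Srsf1, the founding SR protein that binds exonic enhancers, had 268, 237 and 326 in undifferentiated cells, 82.5, 232 and 54.6 at 4+8 days, 150.0, 198 and 137 at 4+11 days and 176 and 163 in feeder cells. Replicate 2 stood well above the other 2 arrays at 4+8 days and just below the lowest undifferentiated array. The log2 difference at 4+8 days was -1.35 ± 0.41 (adjusted p = 0.0279), and the differences of -0.75 at 4+11 days and -0.67 in feeder cells did not pass. Another Srsf1 probe set was called lower at 4+8 days, with -1.32 ± 0.27 (adjusted p = 0.00469), and in feeder cells, with -0.98 ± 0.30 (adjusted p = 0.046). One more had -0.93 ± 0.50 (adjusted p = 0.172) at 4+8 days. Srsf11, an SR-related protein, had 1008, 1058 and 1185 in undifferentiated cells, 468, 491 and 274 at 4+8 days, 875, 835 and 793 at 4+11 days and 717 and 707 in feeder cells. The 4+8 day arrays were below all others, with a log2 difference of -1.42 ± 0.23 (adjusted p = 0.0012) and from 4+8 to 4+11 days of 1.05 ± 0.23 (adjusted p = 0.0109).

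Srsf2, an SR protein that stays in the nucleus, had 3928, 4103 and 4630.5 in undifferentiated cells, 3097, 3669.7 and 1832 at 4+8 days, 2477, 3928 and 1813 at 4+11 days and 1754 and 2053 in feeder cells. This probe set was called in feeder cells alone, with -1.15 ± 0.36 (adjusted p = 0.0471). Its second probe set was called lower at 4+8 days, with -1.05 ± 0.33 (adjusted p = 0.0326), and both probe sets carry the suffix for shared sequence. Srsf3, a small SR protein that also takes part in RNA export, had 1496, 1383 and 1655 in undifferentiated cells, 721, 1439 and 469 at 4+8 days, 977, 1268 and 568 at 4+11 days and 660.2 and 736 in feeder cells. Replicate 2 at 4+8 days reached the undifferentiated range, and differences of -0.93, -0.75 and -1.10 did not pass. Its dimmer probe set read 65.6, 244 and 43.3 at 4+8 days beside 76.9, 65.2 and 88.6 in undifferentiated cells, with the opposite sign, 0.22 ± 0.52 (adjusted p = 0.762). Tra2b, a sequence-specific activator of exons, had 1391, 1747 and 1901 in undifferentiated cells, 716, 1430.0 and 602 at 4+8 days, 1116, 1649 and 788 at 4+11 days and 751 and 860.4 in feeder cells. Its differences were -0.96 ± 0.35 (adjusted p = 0.0547), -0.55 ± 0.35 (adjusted p = 0.308) and -1.04 ± 0.39 (adjusted p = 0.0896).

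The other SR genes did not follow 1 direction. Srsf5 had 1043, 1396 and 1611 in undifferentiated cells, 1258, 2299 and 1118 at 4+8 days, 921, 1368 and 889.7 at 4+11 days and 766 and 962 in feeder cells. It was called in no comparison, with 0.15, -0.35 and -0.62 against undifferentiated cells. Srsf6 had 920.0, 885 and 1548 in undifferentiated cells, 1673, 2651 and 1185 at 4+8 days, 659, 881 and 842 at 4+11 days and 693 and 768 in feeder cells. The 4+8 day arrays overlapped the undifferentiated range but were above the 4+11 day arrays, a log2 difference of -1.13 ± 0.31 (adjusted p = 0.0289) between them. Srsf9 had 980.1, 899 and 859 in undifferentiated cells, 871, 703 and 716 at 4+8 days, 1217, 1142 and 1196 at 4+11 days and 970.4 and 929.9 in feeder cells. Its 4+11 day arrays were the highest of all, and the log2 difference from 4+8 days was 0.64 ± 0.16 (adjusted p = 0.0211), while against undifferentiated cells it was 0.38 ± 0.16 (adjusted p = 0.136). Srsf4 had differences of -0.18, -0.24 and -0.39 from undifferentiated cells, and Srsf10 of -0.33, -0.46 and -0.67, with no call.

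The hnRNP genes with Ptbp2 gave 5 calls of 17 lower at 4+8 days, 0 at 4+11 days and 3 in feeder cells, with 0 higher, and medians of -0.58, -0.20 and -0.71. Over all genes 20.1%, 10% and 10.8% were called lower. At an unadjusted p below 0.05, 7, 3 and 6 were lower and 1, 1 and 0 higher, against 25.1%, 16.8% and 17.1% of all genes lower. The shares of all genes higher were 23.2%, 18.1% and 17.7% at that threshold, and 17.7%, 10% and 11% by the adjusted calls. Hnrnpl, a repressor that binds CA repeats, had 499, 518 and 429 in undifferentiated cells, 201, 282 and 257 at 4+8 days, 557, 473 and 487 at 4+11 days and 272 and 250.5 in feeder cells. The 4+11 day arrays lay with the undifferentiated ones, and the 4+8 day and feeder arrays were below both. It fell at 4+8 days, with a log2 difference of -0.95 ± 0.18 (adjusted p = 0.00334), and in feeder cells, with -0.86 ± 0.20 (adjusted p = 0.0166), and it rose from 4+8 to 4+11 days, with a log2 difference of 1.02 ± 0.18 (adjusted p = 0.00562). Hnrnpk, which binds C-rich RNA, had 1064, 909 and 1045 in undifferentiated cells, 411, 825 and 389 at 4+8 days, 1172, 1306 and 854 at 4+11 days and 739 and 725 in feeder cells. The log2 difference at 4+8 days was -0.97 ± 0.29 (adjusted p = 0.025) and that of 4+11 from 4+8 days 1.09 ± 0.29 (adjusted p = 0.0244), with 0.12 ± 0.29 (adjusted p = 0.804) between 4+11 days and undifferentiated cells.

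Hnrnpd, which binds AU-rich elements and is also called AUF1, had 1764, 1668 and 1734 in undifferentiated cells, 838, 875 and 364 at 4+8 days, 887, 1468 and 654 at 4+11 days and 702 and 680.3 in feeder cells. All arrays of the other groups were below the undifferentiated ones, and the calls were at 4+8 days, with -1.40 ± 0.36 (adjusted p = 0.0134), and in feeder cells, with -1.31 ± 0.41 (adjusted p = 0.0465). Hnrnpc, which binds uridine tracts, had 204, 198 and 223 in undifferentiated cells, 58.5, 169 and 65.8 at 4+8 days, 146, 206 and 129 at 4+11 days and 118 and 116 in feeder cells. At 4+8 days replicates 1 and 3 were far below replicate 2, and the group fell, with a log2 difference of -1.17 ± 0.34 (adjusted p = 0.0225). Hnrnph2, which binds G-rich runs, had 105, 79.8 and 95.8 in undifferentiated cells, 45.1, 26.9 and 55.7 at 4+8 days, 114, 115 and 78.4 at 4+11 days and 141 and 136 in feeder cells. It fell at 4+8 days, with a log2 difference of -1.03 ± 0.25 (adjusted p = 0.00977) and rose from there to 4+11 days, with a log2 difference of 1.14 ± 0.25 (adjusted p = 0.0116). Hnrnpll, a paralogue of Hnrnpl, was called lower in feeder cells, with -0.76 ± 0.23 (adjusted p = 0.0435).

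Hnrnpa1, a repressor of exons that opposes Srsf1, had 94.8, 115 and 120.1 in undifferentiated cells, 93.0, 67.6 and 84.5 at 4+8 days, 63.7, 74.1 and 55.8 at 4+11 days and 48.8 and 82.3 in feeder cells. It was called in no comparison, and the difference at 4+11 days was -0.70 ± 0.22 (adjusted p = 0.0527). In the values as deposited its difference at 4+8 days turned from -0.40 to 0.67, with an adjusted p of 0.0429. Hnrnpa2b1, its close relative, had 3165, 2869.6 and 2958 in undifferentiated cells, 1600.0, 2977 and 1423 at 4+8 days, 2410.2, 3306 and 1459 at 4+11 days and 1644 and 1668 in feeder cells. Replicates 2 and 8 were within or above the undifferentiated range and the other differentiated arrays below it, and no difference passed. Its dimmer probe set was called higher at 4+11 than at 4+8 days, with 1.04 ± 0.27 (adjusted p = 0.0224). Hnrnpab had 335, 349 and 404 in undifferentiated cells, 386, 427 and 382 at 4+8 days, 226, 319 and 141 at 4+11 days and 219.8 and 244 in feeder cells, and from 4+8 to 4+11 days a log2 difference of -0.85 ± 0.26 (adjusted p = 0.0415). A second, dim Hnrnpab probe set gave 1.12 ± 0.40 (adjusted p = 0.0691) there, and the mean of both gave 0.14. Hnrnpr had the largest positive difference of a member at 4+11 days, 0.75 ± 0.31 (adjusted p = 0.123), which did not pass.

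Ptbp2 is the form of the polypyrimidine tract binding protein that replaces Ptbp1 in developing neurons. It had 111, 109.5 and 155 in undifferentiated cells, 162, 226 and 44.7 at 4+8 days, 129, 409 and 69.8 at 4+11 days and 66.0 and 69.0 in feeder cells. The spread within the differentiated groups was wide, with replicates 2 and 8 the highest. The differences were -0.04 ± 0.63 (adjusted p = 0.968), 0.32 ± 0.63 (adjusted p = 0.768) and -0.80 ± 0.71 (adjusted p = 0.487). The other hnRNP genes, Hnrnpdl, Hnrnph1, Hnrnph3, Hnrnpm, Hnrnpu and Hnrnpul2, were called in no comparison.

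Within each differentiated group most splicing factors were highest on 1 array and lowest on another. Replicate 2 was the highest of the 3 arrays at 4+8 days for 37 of the 52 genes, against 37.3% of all genes, and replicate 3 was the lowest for 40, against 36% of all genes. At 4+11 days replicate 8 was the highest for 45 genes, against 41.2% of all genes, and replicate 12 the lowest for 41, against 39.1%. As a share of the summed deposited intensity, the 73 probe sets made up 1.76%, 1.68% and 1.89% in undifferentiated cells, 1.19%, 1.51% and 0.894% at 4+8 days, 1.37%, 1.73% and 1.12% at 4+11 days, and 1.11% and 1.14% in feeder cells. Replicate 8 was within the undifferentiated range of shares and all other differentiated and feeder arrays were below it. The median SD between replicates of the 52 genes on the log2 scale was 0.14 in undifferentiated cells, 0.45 at 4+8 days, 0.28 at 4+11 days and 0.10 in feeder cells, beside 0.19, 0.43, 0.25 and 0.15 over all genes.

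Markers of other cells differed between the same replicates. Sox2, a factor of ES cells and neural progenitors, had 3838, 3230.3 and 3909 in undifferentiated cells, 431, 1342 and 74.3 at 4+8 days, 425, 2106 and 151 at 4+11 days and 48.4 and 41.0 in feeder cells. Replicates 2 and 8 were the highest of their groups, as for the splicing factors. Tyrobp, an adaptor of macrophages, had 23.1, 23.1 and 9.17 in undifferentiated cells, 534, 15.6 and 1127 at 4+8 days, 878, 126 and 1396 at 4+11 days and 53.3 and 36.0 in feeder cells. There replicates 2 and 8 were the lowest of their groups. Col1a1 had 10278, 2826 and 14356 at 4+8 days and 9853, 5311 and 6747 at 4+11 days, again lowest in replicates 2 and 8. Summed over all 5 fibroblast markers (Col1a1, Col1a2, Col3a1, Thy1 and Fn1), intensity spanned 5450.2 to 8536 on the undifferentiated arrays. It spanned 9095 to 32674 at 4+8 days, 11187 to 19213 at 4+11 days and 30936 to 34273 in feeder cells. Thy1 was dim, at or below 31.8, on every 4+8 day array.

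The 3 macrophage markers (Tyrobp, C1qb and Ctss) summed to 28.9 to 109 on the undifferentiated arrays. Their sum spanned 89.6 to 3243 at 4+8 days, 422 to 5324 at 4+11 days and 125 to 235 in feeder cells. The 5 neural progenitor markers (Nes, Sox1, Sox2, Pax6 and Msi1) summed to 3477 to 4149, 326 to 1985, 605 to 2877 and 460.0 to 675, with Msi1 and Sox1 dim on every undifferentiated array. Most of the undifferentiated sum was Sox2, so the sum mainly follows that gene. By gene, 3 of the 5 differences from undifferentiated cells were positive at 4+8 days, 4 at 4+11 days and 3 in feeder cells. The 3 measured neuron markers of 4 (Tubb3, Ncam1 and Nefl) summed to 1074 to 1454, 1895 to 2854, 1360 to 3131 and 1997 to 2111. All 3 differences from undifferentiated cells were positive at both times, but in feeder cells 1 was positive and 2 were negative. The 4 cardiac muscle markers (Tnnt2, Tnnc1, Myl7 and Myh7) summed to 36.3 to 71.5, 3897 to 9188, 312 to 1261 and 89.4 to 156, and all 4 were dim on every undifferentiated array. The 5 ES cell markers (Pou5f1, Nanog, Zfp42, Utf1 and Fgf4) summed to 6626 to 8719 in undifferentiated cells and to at most 368 in any other group. No marker was at 0. The ratio of 3′ to 5′ actin signal, a measure of RNA integrity, lay between 1.59 and 1.93 in undifferentiated cells, between 1.70 and 2.18 at 4+8 days, between 1.49 and 1.84 at 4+11 days and between 1.47 and 1.63 in feeder cells. The part of these markers and of RNA integrity in the splicing factor differences was not tested.

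**Figure D4:**
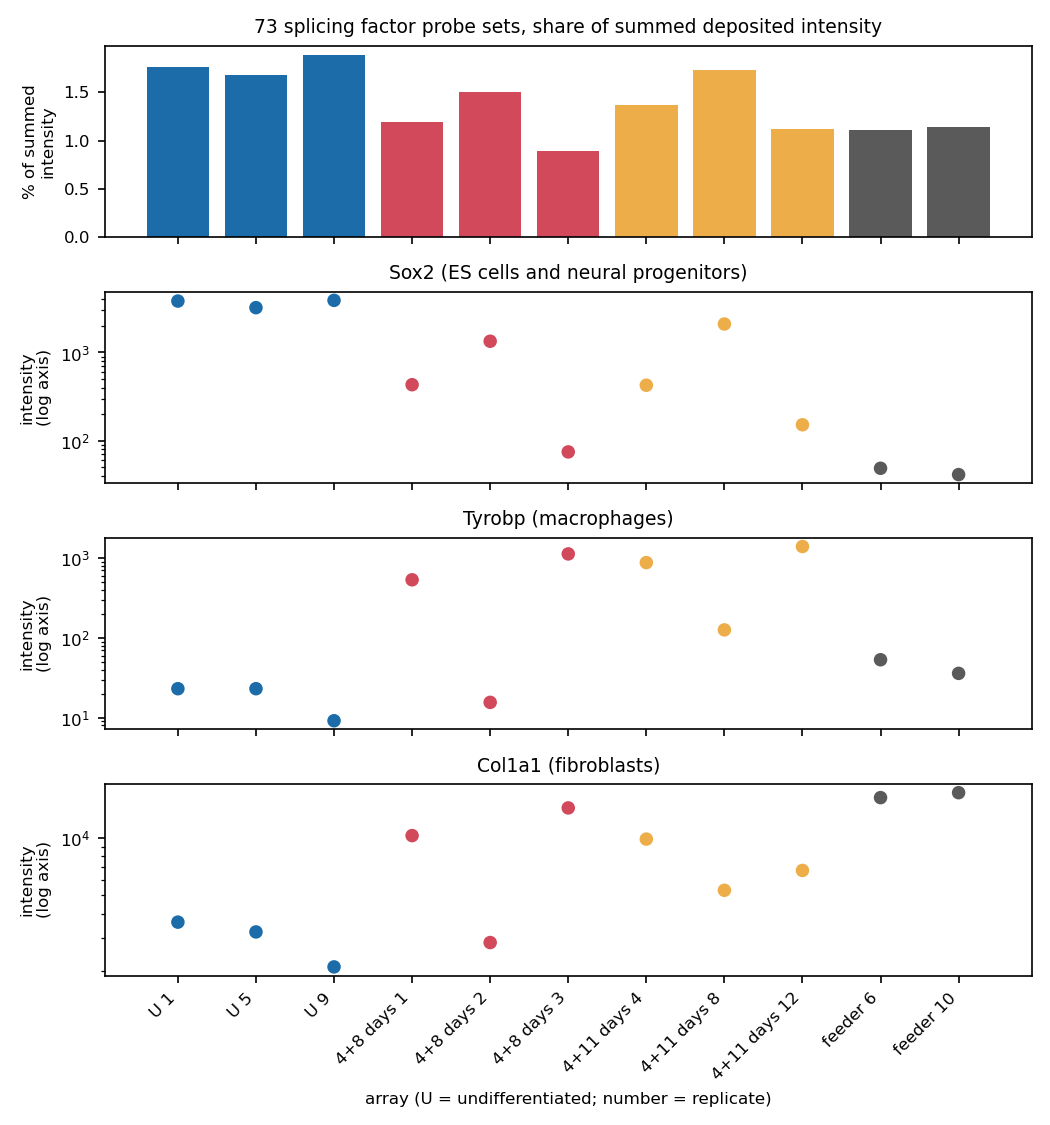
Share of the summed deposited intensity held by the 73 splicing factor probe sets (top, linear axis from 0) and quantile-normalised intensity of Sox2, Tyrobp and Col1a1 (log axes) on each of the 11 arrays. The share and Sox2 are highest in replicate 2 at 4+8 days (1.51%) and in replicate 8 at 4+11 days (1.73%), where Tyrobp and Col1a1 are lowest within their groups.

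A wider list of 116 other genes of the spliceosome and its regulators had 82 genes with a probe set and 79 tested. At 4+8 days 27 of them were called lower and 2 higher, at 4+11 days 10 lower and 1 higher, and in feeder cells 18 lower and 1 higher. Over all genes 20.1%, 10% and 10.8% were called lower and 17.7%, 10% and 11% higher, so the lower count at 4+11 days is near the background. Their medians were -0.51, -0.33 and -0.45. Between 4+8 and 4+11 days 11 were called higher and 4 lower, against 12.5% and 10.8% of all genes, with a median of 0.16. The helicase gene Dhx16, whose product drives the activated spliceosome forward, was called lower in all 3 groups. It had 439.9, 520.0 and 538 in undifferentiated cells, 31.1, 118 and 65.8 at 4+8 days, 100.3, 102 and 103 at 4+11 days and 106 and 109 in feeder cells. No array of another group came near the undifferentiated ones, and the differences were -2.81 ± 0.34 (adjusted p = 0.000313), -2.20 ± 0.34 (adjusted p = 0.00292) and -2.12 ± 0.38 (adjusted p = 0.00502). Bcas2, a protein of the Prpf19 complex, had 163, 157 and 197 in undifferentiated cells, 27.7, 31.9 and 29.2 at 4+8 days, 88.9, 101 and 99.2 at 4+11 days and 91.8 and 101 in feeder cells. It was called lower in all 3, with -2.24 ± 0.16 (adjusted p = 2.73e-05), -0.78 ± 0.16 (adjusted p = 0.0103) and -0.78 ± 0.18 (adjusted p = 0.0153), and it rose from 4+8 to 4+11 days, with a log2 difference of 1.46 ± 0.16 (adjusted p = 0.000911).

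The calls above undifferentiated cells in that list were few. At 4+8 days they were Dhx15, the helicase that takes spent spliceosomes apart, with 1.15 ± 0.17 (adjusted p = 0.000756), and Khdrbs1, the RNA-binding protein Sam68, with 0.86 ± 0.20 (adjusted p = 0.00912). At 4+11 days the call was Tia1, which binds uridine-rich RNA beside weak 5′ splice sites, with 0.76 ± 0.23 (adjusted p = 0.0437). In feeder cells it was Mbnl1, a muscleblind protein, with 2.35 ± 0.74 (adjusted p = 0.0483). Mbnl1 had 96.4, 106 and 99.9 in undifferentiated cells, 149, 30.9 and 328 at 4+8 days, 374, 162 and 489.7 at 4+11 days and 579 and 519.6 in feeder cells. Within each differentiated group its lowest array was replicate 2 or 8, the arrays where most splicing factors were highest.

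Of 15 splicing regulators enriched in neurons, 5 were tested. Celf2, an RNA-binding protein of the CELF family, had 30.2, 39.7 and 23.3 in undifferentiated cells, 53.3, 37.3 and 67.3 at 4+8 days, 162, 160.3 and 153 at 4+11 days and 195 and 142 in feeder cells. It was called higher at 4+11 days, with 2.10 ± 0.24 (adjusted p = 0.000608), and in feeder cells, with 2.17 ± 0.27 (adjusted p = 0.000875), and higher at 4+11 than at 4+8 days, with 1.48 ± 0.24 (adjusted p = 0.00386). Elavl2, a member of the neuronal Hu family, had 102, 123 and 108 in undifferentiated cells, 19.9, 30.7 and 17.5 at 4+8 days, 26.0, 108 and 3.72 at 4+11 days and 12.5 and 15.5 in feeder cells. It was called lower at 4+8 days, with -1.96 ± 0.62 (adjusted p = 0.0325), and in feeder cells, with -2.41 ± 0.70 (adjusted p = 0.0367). Elavl3 had 13.1, 91.3 and 2.61 at 4+8 days and 2.92, 39.3 and 5.41 at 4+11 days, Elavl4 31.8, 107 and 3.43 and 30.2, 71.5 and 3.25, and Celf4 9.78, 67.6 and 28.5 and 57.0, 159 and 50.4. Replicates 2 and 8 were the highest of their groups for all 3 of these genes, and none of them was called.

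Several member calls rested on single arrays or single probe sets. Of the 15 lower calls at 4+8 days, the count was 11 to 23 when each array was left out in turn. It was 23 when replicate 2 was left out. Over all genes those fits called 14.3% to 22.2% lower, with 22.2% without replicate 2. At 4+11 days the count was 0 without any of undifferentiated replicates 1, 5 and 9 or 4+11 day replicates 4 and 12. In those fits 4.71% to 6.62% of all genes were called lower. Without replicate 8 the count was 5, against 9.07% of all genes. In feeder cells the count was 5 or 6 without an undifferentiated array, where 6.21% to 7.53% of all genes were called lower. Without feeder replicate 10 or 6, which leaves 1 feeder array, the median difference of the members was -0.70 or -0.62. Of the 11 rule-named genes called at 4+8 days, 8 kept their call in every such fit, while Srsf1 and Hnrnpc lost it in 5 of 6 fits and Hnrnpk in 4 of 6. Of the 6 named calls at 4+11 days 0 were kept in every fit, and of the 10 named calls in feeder cells also 0. Runs were inferred from the hour of the hybridisation time in the deposited experiment files. The 4+11 day replicate 12 was alone in run 3. With the run as a block, among the 8 arrays of 1 session, 10 members were called lower at 4+11 days and 33 in feeder cells. That fit called 14.1% and 18.1% of all genes lower, and its 4+11 day estimate came from replicates 4 and 8. Medians within run 1, which held undifferentiated replicates 1 and 5, were -0.47 at 4+11 days and -0.64 in feeder cells. Within run 2, which held undifferentiated replicate 9, they were -0.24 and -0.74. In that run the undifferentiated array, replicate 9, had a different wash protocol from 4+11 day replicate 8 and feeder replicate 10, so the group and the wash protocol cannot be told apart there. Among the 8 arrays of that session, the other one with the protocol of replicate 9 was 4+11 day replicate 12. For the 13 genes with several tested probe sets, all probe sets had the same sign in 10 at 4+8 days, 11 at 4+11 days, 10 in feeder cells and 8 between 4+11 and 4+8 days.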

How the data were processed

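The deposited values are probe set intensities on a linear scale, as the values themselves show. No label or header names the probe summary software. Per the deposited experiment files, which hold other settings of the scanner (chip type, lot, wash and scan), 8 arrays shared a scan session and the 3 arrays at 4+8 days had another. From the values, the 4+8 day arrays had been scaled to a trimmed mean of 200.1 by the authors and the remaining 8 to none, with means between 86.2 and 160.2 after trimming 2% at both ends, so intensities were quantile normalised over all 11 arrays. Array number limits the precision. After adding 8.5 (20th percentile of the deposited values), log2 values of probe sets above 33.4 (40th percentile) on at least 2 arrays were fitted with limma 3.58.1 (lmFit, eBayes) in R 4.3.3, with 4 groups, two-sided tests and Benjamini-Hochberg adjustment. The script was tested on simulated data. The 66 control probe sets were left out, and 8940 probe sets were tested. Symbols come from the platform annotation table, and a gene was represented by its probe set with the highest mean.

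The members and gene lists were chosen with earlier results of these data known. Named genes were, per comparison, up to 6 called genes of greatest rise and up to 6 of greatest fall, and a fixed set (Srsf1, Srsf2, Srsf3, Srsf5, Tra2b, Ptbp2, Hnrnpa1, Hnrnpa2b1, Hnrnpc, Hnrnpk, Hnrnpl, U2af1, U2af2, Sf3a1, Sf3b1, Snrpb, Snrpe, Prpf8 and Prpf19). All other named members, and Dhx15, Khdrbs1, Tia1 and Mbnl1, complete the account of calls or classes, a choice made with their values known. Alternatives changed the normalisation, filter, pseudocount, probe sets, arrays in the fit and use of the run as a block.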

Additional observations from a re-analysis of the deposited data

Results flagged for a closer look

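The 12 members below differed between the 2 differentiated groups by the test of that difference in limma, which also says that their difference from undifferentiated cells was not the same at 4+8 and 4+11 days. The 2 groups were scanned in different sessions, which cannot be told apart from the days. Higher at 4+11 days were Sf3b1 by 1.88 on the log2 scale, Hnrnph2 by 1.14, Hnrnpk by 1.09, Srsf11 by 1.05, Hnrnpl by 1.02, Prpf4b by 0.92 and Srsf9 by 0.64. Lower at 4+11 days were Sf3b2 (-1.30), Srsf6 (-1.13), Prpf19 (-1.01), Hnrnpab (-0.85) and U2af1l4 (-0.56). The second probe set of Sf3b1 gave 0.20 and that of Hnrnpab gave 1.12, neither past the threshold. Leaving out each array in turn kept 6 of the 11 named calls of this comparison in every fit.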

How the results depend on the processing

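No paired analysis was possible because undifferentiated and 4+8 day cells share 1 replicate number and the other groups share none. Leaving out each array in turn, the median difference ranged from -0.71 to -0.36 at 4+8 days, from -0.55 to -0.29 at 4+11 days, from -0.71 to -0.62 in feeder cells and from -0.10 to 0.34 between 4+11 and 4+8 days. In these fits, 11 to 23 members were called lower at 4+8 days and 1 to 2 higher. The shares over all genes were 14.3% to 22.2% and 11.7% to 20.1%. At 4+11 days 0 to 5 were lower and 0 higher, against 4.71% to 9.07% and 4.83% to 9.67%. Without an undifferentiated array, 5 to 6 were lower in feeder cells and 0 higher, against 6.21% to 7.53% and 5.61% to 7.19%. Between 4+11 and 4+8 days 2 to 6 were lower and 4 to 11 higher, against 5.28% to 12.6% and 5.62% to 14.4%. In that comparison, the lower count was 2 without 4+8 day replicate 1 or 2 or 4+11 day replicate 4 or 12. Over all genes those fits called 8.71%, 11%, 5.28% and 6.81% lower. The higher count was 4 without 4+11 day replicate 4 and 11 without 4+8 day replicate 2, against 5.62% and 13.4% of all genes.

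With the values as deposited, medians were 0.35 at 4+8 days (reversed), -0.070 at 4+11 days, -0.22 in feeder cells and -0.22 between 4+11 and 4+8 days (reversed). Lower counts were then 2, 0, 0 and 10, and higher counts 10 at 4+8 days and 1 between 4+11 and 4+8 days. Over all genes that fit called 4.26%, 3.54%, 3.61% and 34.3% lower. It called 58.3% higher at 4+8 days and 2.15% between 4+11 and 4+8 days. Hnrnpa1 (0.67) and Snrpb (0.85) reversed at 4+8 days, and the mean of probe sets turned Hnrnpab between 4+11 and 4+8 days to 0.14. For feeder cells the median was -0.62 with the mean of probe sets, -0.60 and -0.69 with pseudocounts at the 40th and 5th percentiles, -0.63 without the other wash protocol and -0.64 and -0.74 within runs 1 and 2. The lower count in feeder cells was 9 with the 5th percentile pseudocount and 3 without the other wash protocol. It was 33 with the run as a block, 33 with only the groups compared and 7 with no filter. Over all genes 9.88%, 5.01%, 18.1%, 18.6% and 7.31% were called lower in those fits. At 4+11 days the median within run 2 was -0.24, and the lower count was 0 without the other wash protocol. It was 10 with the run as a block, 10 with only the groups compared and 2 with no filter. Over all genes 2.33%, 14.1%, 14.3% and 6.99% were called lower in those fits. Under the block 1 member was called higher, against 14.9% of all genes. For each probe set the main fit shared 1 estimate of the spread over all 11 arrays, the 4+8 day arrays included. The cause of these changes was not tested. A fit of the 8 arrays of the first session alone, chosen after seeing the data, gave 14 lower and 1 higher at 4+11 days. In feeder cells it gave 26 lower with a median of -0.70. Over all genes it called 16.7% lower and 17.7% higher at 4+11 days, and 17.6% lower in feeder cells. With only the groups compared, 1 was called higher in feeder cells, against 20.3% of all genes. Between 4+11 and 4+8 days that setting gave 1 higher and 1 lower, against 2.92% and 3.11% of all genes. No filter gave 3 lower there, against 7.77%. At 4+8 days, 2 were called higher with the mean of probe sets and 0 with unsuffixed probe sets alone. Over all genes those fits called 16.8% and 17% higher.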
